A study of Gallus gallus with 4 samples.

Results

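The subject is the response of OsTIR1-expressing DT40 cells to auxin, read from 2 of the 4 arrays of the series: 1 array of cells given 500 µM indole-3-acetic acid (IAA) for 6 h, and 1 array of cells of the same stable line without IAA. The arrays were chosen by their titles. DT40 is a chicken B lymphoma line, and OsTIR1 is expressed in it stably, with its promoter and the number of clones not given in the labels. IAA was added from a 0.5 M stock in ethanol. The labels leave unsaid whether the untreated cells received ethanol alone. The medium held 10% fetal calf serum, 1% chicken serum and beta-ME, and all cultures were kept at 38.5 °C. Another pair of arrays, parental DT40 without OsTIR1, untreated or with 500 µM IAA for 6 h, serves as a reference for which OsTIR1 array stood apart at a given probe.

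Auxin is a plant hormone, and IAA is its main natural form. In plants the F-box protein TIR1 binds auxin together with Aux/IAA repressor proteins, and the SCF ubiquitin ligase then marks those repressors for destruction, which releases auxin-responsive genes. Vertebrate cells have the other SCF subunits, but neither TIR1 nor Aux/IAA proteins, so rice TIR1 can be placed in them to degrade a tagged protein on demand. The design text asks whether auxin turns on particular genes in animal cells, and the OsTIR1 line is the one that holds a plant auxin receptor.

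Each group is 1 array, so no value below has a replicate, no test was possible, and precision is limited by having 1 array on each side. In such bulk samples fewer cells of a type and less RNA per cell cannot be told apart. All 4 arrays sat on 1 slide and were read in 1 scan, per the file headers. Levels are log2 intensities minus the 75th percentile of the array, which lay at 171 intensity units without IAA and 168 with it. A probe counts as measured where the scanner software flagged it well above background on both OsTIR1 arrays, which held for 22873 of 42034 probes (54.4%). Of the 66 probes with a RefSeq accession 51 matched a gene symbol, standing for 50 genes, and 244 probes carry microRNA names. No gene name was found for the remaining 41739, so most measured transcripts can be described only by their identifiers. The rice transgene has no probe named for it, so its expression could not be checked. Of the 9 B cell marker genes listed for a check of the cell type, RAG1 alone has a named probe, and it was not well above background on any array. TLR4 (macrophage) and VTG2 (hepatocyte) were not either.

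With IAA, none of the named genes measured on both arrays of the OsTIR1 line moved by as much as 1.5-fold. Of the 50, 23 were measured on both OsTIR1 arrays, and 0 of these 23 passed 1.5-fold, a size that 2.19% of all measured probes reached. Above the median level of the measured probes, where 13 of the 23 lay, the share was 0.035%. With shares that small, 0 of 23 does not set the named genes apart from other measured probes. Their differences, IAA minus untreated, ran from -0.38 to 0.23 on the log2 scale with a median of -0.06, beside a median of -0.003 over all measured probes. For 18 of the 23 the difference was smaller than 1.1-fold. By value, 8 were above 0 and 15 below. Quantile normalization left 8 above 0, cyclic loess 9 and normexp 5. Centring each array on its median put 17 above 0, but it raised the median of all measured probes by 0.10 as well. The median of the named genes was then 0.04, beside 0.10 over all measured probes.

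**Figure D1:**
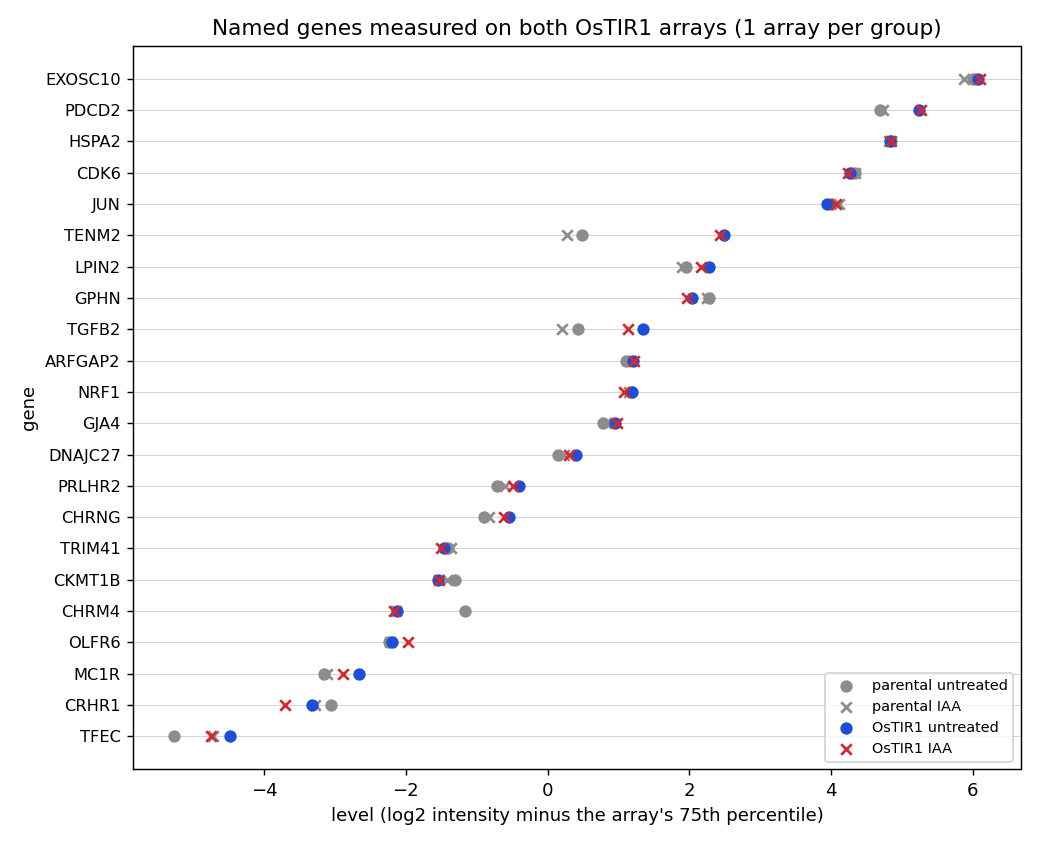
Level of 22 of the 23 named genes measured on both OsTIR1 arrays, with the gene on the vertical axis and log2 intensity minus the array's 75th percentile on the horizontal axis. Circles are untreated and crosses IAA-treated cultures, in colour for the OsTIR1 line and in grey for parental DT40. The 2 coloured marks of a gene lie at most 0.38 apart.

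Among transcription factor genes, JUN encodes a subunit of the immediate early factor AP-1 and answers many stresses. Its intensity was 2651 without IAA and 2833 with it in the OsTIR1 line, a difference of 0.12 on the log2 scale. The nominal 95% interval, built from the error that the scanner software assigned to each spot, ran from -0.28 to 0.52 and covers no variation between cultures. The parental readings of JUN were 2832 and 2914. NRF1, the factor that drives nuclear genes of mitochondrial respiration, read 392 and 355 in the OsTIR1 line, a difference of -0.11 (-0.51 to 0.29). TFEC, a basic helix-loop-helix factor of the MITF family, read 7.65 and 6.24. TFEC lay near the detection limit, was not well above background on either parental array, and had the widest interval of the 23 genes (-1.08 to 0.55).

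Growth and RNA-processing genes were among the brightest of the named ones. EXOSC10, the catalytic subunit of the nuclear RNA exosome, read 11535 without IAA and 11582 with it. PDCD2, a protein involved in ribosome assembly, read 6462 and 6510. CDK6, a kinase that drives entry into S phase, read 3292 and 3190. Their differences were 0.03, 0.04 and -0.02. The 2 probes of HSPA2, a chaperone of the HSP70 family, read 4870 and 4832 at the brighter probe and 2421 and 2273 at the other, with differences of 0.02 and -0.06. HSPA2 is the sole member of the heat shock list with a named probe.

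TGFB2, a secreted growth factor, read 438 without IAA and 368 with it in the OsTIR1 line, a difference of -0.22 (-0.62 to 0.18). It was the largest difference among the 13 named genes above the median level of the measured probes. The parental readings of TGFB2 were 238 without IAA and 193 with it, a difference of -0.23. TENM2, a transmembrane adhesion protein, read 963 and 906, a difference of -0.06 (-0.46 to 0.34), and was dimmer in parental DT40, at 246 and 203. The remaining metabolic and scaffold genes stayed close to their untreated readings. LPIN2, a phosphatidate phosphatase of lipid synthesis, read 831 and 757. GPHN, the scaffold protein gephyrin, read 707 and 658. GJA4, a gap junction protein, read 333 and 332. ARFGAP2, which acts in vesicle transport, read 396 and 392, and CKMT1B, a mitochondrial creatine kinase, read 58.9 and 58.3. DNAJC27 read 225 and 208 and TRIM41, a ubiquitin ligase, 62.1 and 59.5, differences of -0.09 and -0.03.

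The list of hormone and neuropeptide receptors has 13 genes, 12 with a named probe, and 4 were measured on both OsTIR1 arrays. Of these 4, 0 passed 1.5-fold, beside 2.19% of all measured probes. CRHR1, the receptor for corticotropin-releasing hormone, read 17.2 without IAA and 12.9 with it, the lowest difference among the 23 genes at -0.38 (-0.94 to 0.18). The parental readings of CRHR1 were 21.2 and 17.3, and the treated OsTIR1 array was the dimmest of the 4. The muscarinic acetylcholine receptor CHRM4 read 39.4 and 37.3, while in parental DT40 it read 78.7 and 38.2. The nicotinic subunit CHRNG read 117 and 110, and the prolactin-releasing hormone receptor PRLHR2 read 129 and 120. Outside that list, the melanocortin receptor MC1R read 27.1 and 22.6, a difference of -0.23 (-0.69 to 0.23). The olfactory receptor OLFR6 had the highest difference of the 23, 0.23 (-0.19 to 0.66), with readings of 37.3 and 43.1.

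OR51M1 and OLFR4, also olfactory receptor genes, were well above background on the untreated OsTIR1 array alone, at 8.60 and 6.62 intensity units. They were at least 1.38-fold and at least 1.06-fold above the IAA array, where the dim side was set to its own level or to the lowest level flagged there, whichever was greater. No named gene was lit on the IAA array alone, and 25 were lit on neither OsTIR1 array. No gene of the lists for aryl hydrocarbon receptor targets, oxidative stress or the SCF ligase has a named probe here, so these responses were not analysed.

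**Figure D2:**
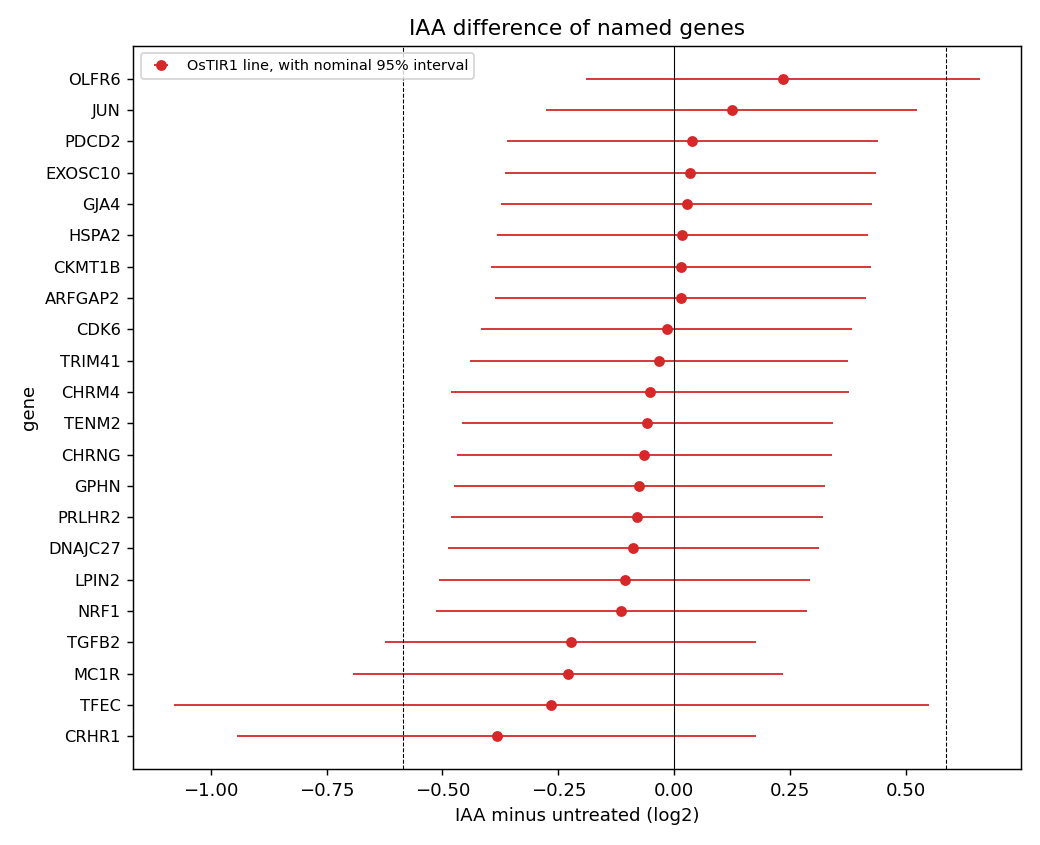
Difference between IAA and untreated (log2) on the horizontal axis for the same 22 genes, sorted. Red points are the OsTIR1 line with the nominal 95% interval of the 2 spots, and dashed lines mark 1.5-fold. No red point reaches a dashed line. Each interval includes 0, since even the narrowest reaches 0.40 to each side and no difference is larger than 0.38 in size.

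The nominal intervals of the named genes reached 0.40 to 0.81 to each side, and the spread seen between spots was smaller for bright probes. Spike-in transcripts gave 7 control probes that were lit on both OsTIR1 arrays, with 224 spots in all. Their mean differences between the arrays lay between -0.02 and 0.02, and the SD over the spots of a spike-in was 0.04 to 0.13. The mean levels of these spike-ins without IAA were -2.21 to 7.78. The dimmer spike-ins E1A_r60_3, E1A_r60_a104 and E1A_r60_a107, at -5.50, -6.21 and -5.18, were not lit on most spots. Their mean differences were -0.17, -0.26 and -0.10, with SDs of 0.69, 0.85 and 0.67, so the small spreads do not cover dim probes. Among microRNA names with 2 probes, 114 in all, the differences of the 2 probes of a name were a median of 0.06 apart. The SD per probe, taken from the mean squared gap of these pairs, was 0.06. These are technical spreads within a pair of arrays and say nothing of a second culture.

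MicroRNAs are short regulators cut from longer precursor transcripts, and several are known for their restriction to a tissue. All 244 probes with microRNA names were well above background on all 4 arrays. They include names known from other tissues: mir-122a of liver read 261 and 287 without IAA at its 2 probes, mir-124a and mir-124b of neurons 241 to 271 at 4 probes, and mir-302a to mir-302d of stem cells 174 to 3323 at 12 probes. Being lit therefore did not separate names known from blood cells from names known from other tissues, and these readings are given as those of the probes and not as levels of mature microRNAs.

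With IAA the microRNA-named probes barely differed. Their readings in the OsTIR1 line had a median of 359 without IAA and 362 with it. The median difference was 0.01, the SD over probes 0.07 and the range -0.17 to 0.32, and 0 of 244 passed 1.5-fold. Among 3595 other probes of like level 2 (0.0556%) did. The 18 let-7 probes differed by -0.05 to 0.13 and the 12 mir-30 probes by -0.07 to 0.13. The 12 probes named for the cluster from mir-17 to mir-92 differed by -0.08 to 0.08. They are named for mir-17, mir-18a, mir-19a, mir-19b and mir-20a, and no probe is named for mir-92. The mir-155 probes, named for a microRNA of activated B cells, read 393 and 367 without IAA and 385 and 358 with it, and both differences lay within 0.01 of 0. The mir-223 probes, named for a myeloid microRNA, read 694 and 681 without IAA and 693 and 662 with it.

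Averaged over the probes of a name, the highest differences were 0.23 for mir-133b, 0.18 for mir-128b, 0.11 for mir-103, 0.11 for mir-16 and 0.11 for mir-7b. The lowest were -0.10 for mir-205b, -0.09 for mir-148a, -0.09 for mir-302d, -0.08 for mir-135a and -0.08 for mir-194. For 3 single probes the difference reached 0.20, and for none of the 114 names did both probes reach it. The 2 probes of mir-133b read 377 and 342 without IAA and 423 and 400 with it. In parental DT40 they read 437 and 374 without IAA and 418 and 361 with it. The mir-128b probes read 388 and 317 without IAA and 395 and 385 with it. Their parental readings were 410 and 374 without IAA and 413 and 361 with it. At both probes of mir-133b and of mir-128b the untreated OsTIR1 array was the dimmest. At mir-103, mir-16 and mir-7b it was not the dimmest at both probes.

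Across all measured probes, differences of 2-fold were rare and sat among dim spots. The median size of the difference was 0.09 on the log2 scale, 90% of probes lay within 0.31 and 99% within 0.74. Of 22873 probes, 32 (0.14%) were at least 2-fold higher with IAA and 45 (0.197%) at least 2-fold lower. Median scaling gave 46 higher and 36 lower, and quantile normalization 49 and 37, so the split between higher and lower rests on the scaling. At 1.5-fold 174 (0.761%) were higher and 326 (1.43%) lower. None of the 77 probes past 2-fold has a gene symbol or a microRNA name, and none shares its identifier with another probe of the array. Such names are scarce, as RefSeq accessions are 0.153% of the measured probes and microRNA names 1.07%. Just inside the threshold lay CO769894 at 2.02-fold higher and X56559 at 2.02-fold lower, and the probes just outside it lay at 1.998-fold and 1.999-fold.

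**Figure D3:**
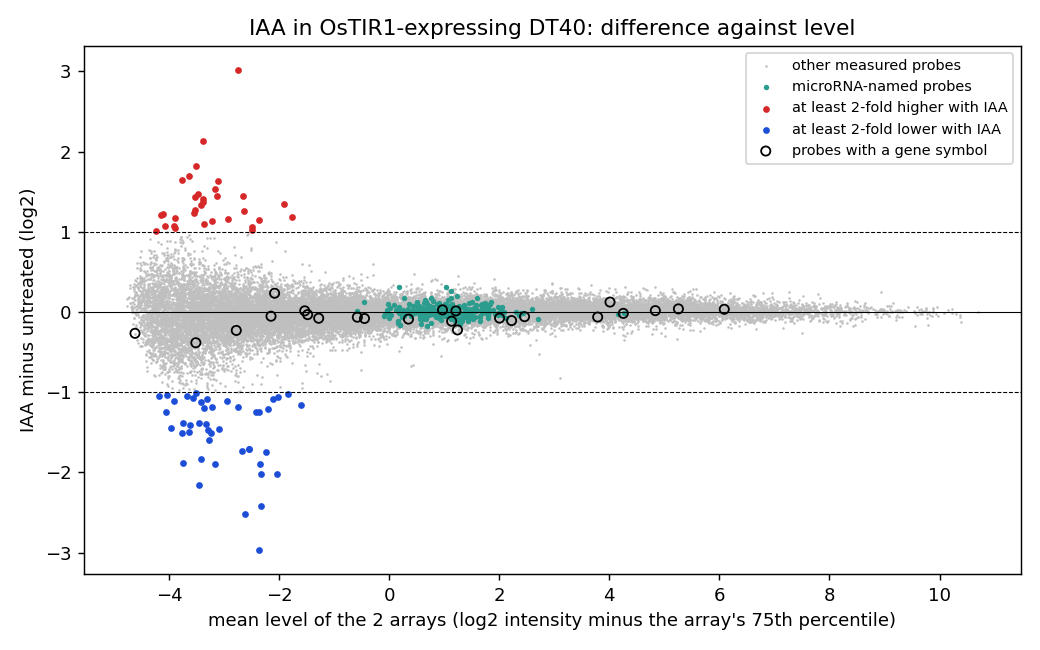
Difference between IAA and untreated in the OsTIR1 line (log2, vertical) against the mean level of the 2 arrays (log2 intensity minus the 75th percentile, horizontal) for the 22873 measured probes. Dashed lines mark 2-fold. The 32 higher (red) and 45 lower (blue) probes all lie left of level -1, and the microRNA-named probes and ringed gene symbols lie close to 0.

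In 4 equal bins of brightness, 27 of the 32 higher probes and 32 of the 45 lower ones fell in the dimmest, and the other 5 and 13 in the next. The SD of the differences fell from 0.34 in the dimmest bin to 0.20, 0.11 and 0.09 in the following ones. The median difference went from -0.05 in the dimmest bin to 0.02 in the brightest. Probes with only a design identifier, which are dim as a class, passed 2-fold at a rate of 1.002%, TC identifiers (assembled clusters of expressed sequence tags) at 0.462% and GenBank accessions at 0.262%.

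The probe with the highest difference, A_87_P040377, read 8.95 without IAA and 71.1 with it, 8.10-fold higher, against 7.12 and 12.1 in parental DT40. BU386151 came next at 4.37-fold, with 7.82 and 33.5 in the OsTIR1 line but 33.5 and 8.64 in parental DT40 without and with IAA, so there the dim arrays were the untreated OsTIR1 and the treated parental one. A_87_P040034, M85043 and CN383842 followed at 3.53-fold, 3.24-fold and 3.12-fold, each brightest on the IAA array of the OsTIR1 line and below 12 intensity units on the other 3. Neither parental array was well above background at A_87_P040377, A_87_P040034, M85043 or CN383842.

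The lowest difference was at BX950596, which read 93.1 without IAA and 11.6 with it, 7.83-fold lower, against 17.9 and 8.83 in parental DT40. BU454613 read 67.01 and 11.5 and was 5.71-fold lower, and BX931930 read 78.5 and 14.4 and was 5.35-fold lower. AF221561 was 4.46-fold lower and A_87_P038389 4.05-fold lower. In all 5 the untreated OsTIR1 array was the bright one and the treated array lay near the parental readings. BX950596, BU454613, BX931930 and AF221561 were not well above background on either parental array, so their parental readings do not count as measured.

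**Figure D4:**
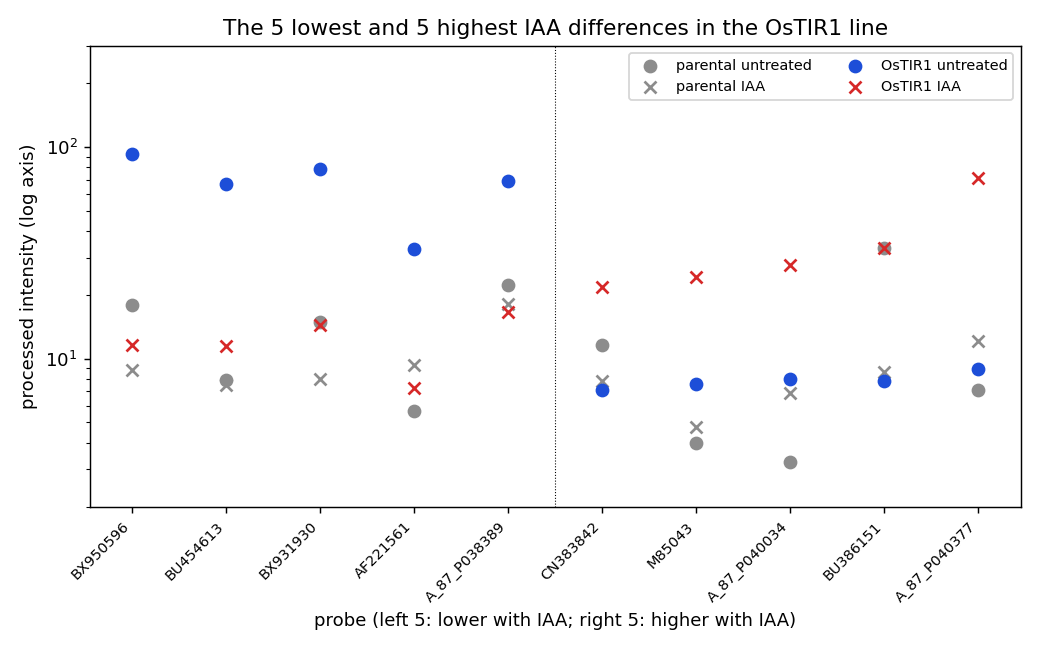
Processed intensity (log axis) on the 4 arrays for the 5 lowest and 5 highest differences. Coloured marks are the OsTIR1 line and grey marks parental DT40, with circles for untreated and crosses for IAA. In 9 of the 10 probes a single OsTIR1 array is brighter than the other 3.

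That pattern held for most of the 77. On the scaled levels, in 31 of the 32 higher probes the IAA array of the OsTIR1 line was the brightest of the 4, and in 42 of the 45 lower ones the untreated array was. The 77 were picked by the difference between these same OsTIR1 arrays, which favours that outcome. No matching share over all measured probes stands beside the counts, so they are descriptions alone. The dim OsTIR1 array was the dimmest of the 4, also on scaled levels, in 13 and 20. Before scaling the intensity of BU386151 was the same to 3 digits on the IAA array and the untreated parental one. The bright spots were dim in absolute terms, with medians of 26.1 units for higher and 30.9 for lower probes and a maximum of 93.1. Of the 32 higher probes 17, and of the 45 lower ones 17, were not well above background on either parental array. The lowest flagged intensity was 14.3 and 10.4 on the parental arrays, without and with IAA, against 5.71 and 6.12 on the OsTIR1 arrays. Of the 77, 24 were measured on all 4 arrays, beside 19436 of the 22873 measured probes. The IAA array lay farther from the parental mean in all 7 higher ones and in 3 of 17 lower ones, and the untreated array in the other 14. The same selection bears on these counts.

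By the mean level of both OsTIR1 arrays, the brightest probes past 2-fold were BX934385, TC205001 and TC224595 on the higher side. They read 33.3, 28.7 and 22.4 without IAA and 74.3, 71.4 and 48.7 with it. On the lower side BX932905, BU424312 and X91011 read 85.1, 68.4 and 61.1 without IAA and 37.2, 33.0 and 28.8 with it. The parental readings of these 6 lay between 20.5 and 56.0.

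Position on the array moved with these differences. Split into 4 bands of spot columns, the array held 24.2% of measured probes in columns 1 to 21, but 26 of the 32 higher probes, with 14 of the 45 lower probes. From the first to the last band the higher probes numbered 26, 5, 1 and 0 and the lower ones 14, 12, 10 and 9. The first band held 1320 probes of the dimmest bin against 1429 to 1515 in the others. The median difference went from 0.02 in the first to -0.02 in the last band. Without the first band 6 probes were higher and 31 lower. The part of position in the counts was not tested.

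**Figure D5:**
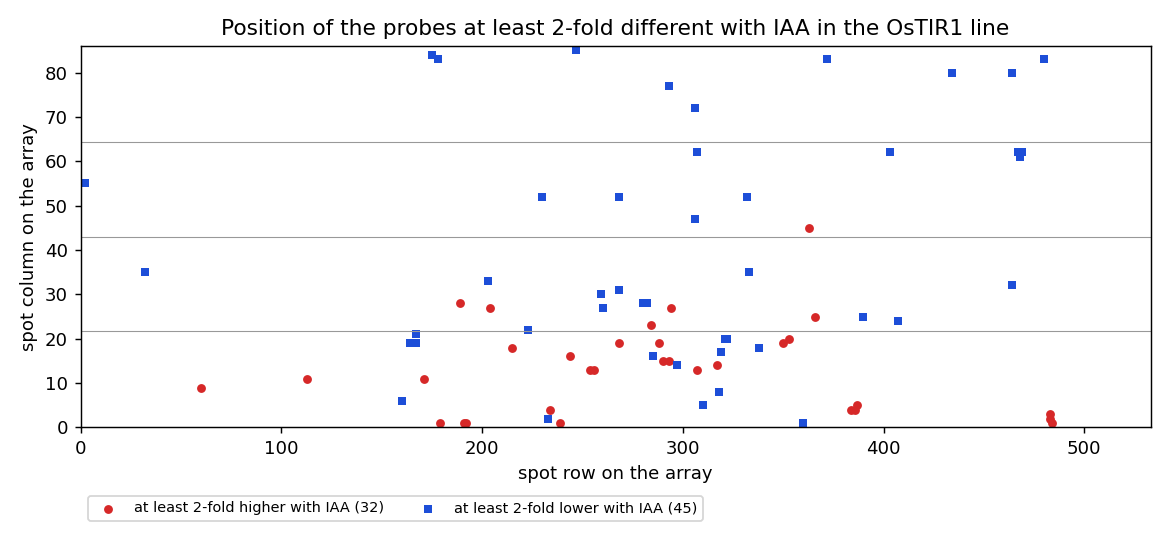
Spot row (horizontal) and spot column (vertical) of the 77 probes past 2-fold in the OsTIR1 line, in array positions counted from 1. Red circles are the 32 higher and blue squares the 45 lower probes, and grey lines split the columns into 4 bands. Of the red circles 26 lie in the lowest band.

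Several of the most different probes were neighbours on the glass. Of the 77, 33 had another probe past 2-fold in the same direction within 5 rows and 5 columns. No matching share over all measured probes stands beside this count, so it is a description alone. A_87_P040377, CR523012 and BX934385, all higher, lie at rows 483 and 484 and columns 1 to 3. TC204589, the probe with the largest bound on the IAA array (74.9 units against 1.44 without IAA), lies among them at row 484 and column 2. BX950596, BX931930 and BU280367, all lower, lie at rows 467 to 469 and columns 61 and 62. Median local background was 17.5 and 18 units at the higher probes, without and with IAA, and 18 and 18 at the lower ones. At probes not past 2-fold it was 18 and 18. Median spot diameters were 49.8 and 48.9 at the higher probes and 49.2 and 47.9 at the lower ones, against 49.2 and 49.2. Such medians do not show defects of single spots.

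A probe lit on 1 OsTIR1 array has only a bound. The untreated array alone lit 1486 probes and the IAA array alone 433, beside a lowest flagged intensity of 5.71 and 6.12. Of these 1919 probes, 291 (15.2%) had a bound of at least 2-fold, 193 of them lit without IAA and 98 with it. None of the 291 has a gene symbol, and just 2 of the 1919 do, OR51M1 and OLFR4. No microRNA-named probe could be among the 1919, since all 244 were lit on both arrays. Columns 1 to 21 held 63 of the 98 (64.3%) and 50 of the 193 (25.9%). The share of the 433 and of the 1486 in those columns was not counted, so these are descriptions alone. The largest bounds were at least 13.4-fold at TC204589 with IAA and at least 12.9-fold at BU344636 without it.

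Bright probes differed little. Among the 11436 above the median level 0 passed 2-fold, the SD was 0.10 and 99% lay within 0.29. The 4 that passed 1.5-fold (0.035%) were singled out after their values were seen. AF242552 is the brightest, at 1952 without IAA and 1085 with it, a difference of -0.82 (-1.22 to -0.42), or 1.76-fold lower. It read 2082 and 1976 in parental DT40, so the treated OsTIR1 array alone stood apart. The 19 measured probes within 3 rows and columns of it had a median difference of -0.002 and reached from -0.62 to 0.30.

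Z68093 read 284 untreated and 174 treated, 1.60-fold lower, and CR406065 read 292 and 181, 1.58-fold lower. With median scaling they were 1.49-fold and 1.47-fold lower, and with normexp 1.49-fold and 1.40-fold. In parental DT40 Z68093 read 187 and 183 and CR406065 212 and 202, so at both probes the untreated OsTIR1 array stood apart. AB221486 read 114 without IAA and 168 with it, 1.51-fold higher, against 118 and 108 in parental DT40. The measured probes within 3 rows and columns had median differences of -0.07 at Z68093, -0.06 at CR406065 and 0.02 at AB221486. Those neighbours reached from -1.89 to 0.27, from -0.94 to 0.12 and from -0.18 to 0.26. The difference at AF242552 was between 1.64-fold and 1.78-fold under each other scaling and background correction tried, and AB221486 fell to 1.24-fold with normexp.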

How the data were processed

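Single-colour (Cy3) Agilent arrays were deposited as scanner output. The processed intensity values were made by the authors with Feature Extraction 10.5.1.1, and statistics of a background subtraction and of spatial and multiplicative detrending are recorded, per the file headers. The headers name galGal2 as the build of the grid. The deposited series table holds the same intensities times a near-constant per array, 4.52 and 4.55 here, with column medians of 60.5 and 55.9; its scale and direction follow from that match, and the reason for the factors is unknown.

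Control spots were left out, and log2 intensity minus the array's 75th percentile was compared between the arrays. With 1 array a group no test was run. Alternatives were median, quantile and cyclic loess scaling, normexp (limma 3.58.1, R 4.3.3, offset 50, on median spot signals in place of the planned mean signals, which were not analysed here), other filters and the series table. Where a gene had several probes the brighter was used. Symbols came from RefSeq names of assembly GRCg7b. No sequence is shown, since no file used here holds any. Features were named by a rule: genes with a symbol measured on both arrays or with a bound of at least 2-fold, the 5 highest, 5 lowest and, each way, 3 brightest unnamed probes past 2-fold, and the 5 highest and 5 lowest microRNA names; others were singled out after their values were seen. A single named gene is counted but not reported here. The members and lists were chosen with earlier results of these data known.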

Additional observations from a re-analysis of the deposited data

Results flagged for a closer look

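The difference with IAA was at least 1.5-fold in opposite directions in the 2 lines at 5 unnamed probes, and this contrast was not tested. They are among 19436 probes well above background on all 4 arrays. CR387565 differed by -0.97 (log2) in OsTIR1 cells and 0.98 in parental DT40, A_87_P041625 by -0.70 and 1.25, AY920750 by -0.70 and 0.78, CR407381 by -0.63 and 0.61, and S82824 by 0.63 and -0.74. All 5 were dim, at 12.4 to 47.4 intensity units in the OsTIR1 line. A_87_P041625, AY920750 and CR407381 lay in the first band of spot columns, and CR387565 and S82824 in the second. The control probe ETG05_66023, which no comparison uses, was lit on all 10 of its spots on each OsTIR1 array, at median levels of -2.89 without IAA and -2.87 with it, against -7.00 and -6.84 for negative controls.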

How the results depend on the processing

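The counts of 32 higher and 45 lower probes depended on the filter and the background correction. Without a filter on dim probes they were 965 and 1956, with probes lit on all 4 arrays 7 and 17, and among probes above the median level 0 and 0. At 1.5-fold they were 174 and 326. Normexp, which adds an offset of 50 units to each signal, gave 0 and 0, where the bright spots of these probes had medians of 26.1 and 30.9 units. Quantile normalization gave 49 higher, and leaving out spot columns 1 to 21, chosen after the data were seen, gave 6 higher. Another alternative added late, subtracting the median of each brightness bin, left 36 higher and 41 lower probes. Of the 77 probes, 71 also passed 2-fold after cyclic loess, 69 after quantile normalization and 68 after median scaling. All 77 passed in the series table, which holds the same intensities times a near-constant per array, so that outcome was close to fixed. The median of microRNA-named probes moved to 0.11 with median scaling, where the median of all measured probes was 0.10. Median scaling also turned the median of the named genes from -0.06 to 0.04 and gave 46 higher probes, and 31 lower probes were left without columns 1 to 21. In all, 0 of the 23 named genes passed 1.5-fold under the 5 scalings, corrections and sources tried. The series table is no separate check among these 5, and the offset of normexp shrinks the differences of dim genes. Signal over background limits what can be read: the SD of the differences was 0.34 in the dimmest and 0.09 in the brightest of 4 bins. No paired analysis was possible because each group is 1 array.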
